A study of Mus musculus with 18 samples.

Results

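The genes described here are 10 enzymes and partner proteins of prostaglandin and leukotriene synthesis, Ptgs1, Ptgs2, Ptges, Hpgds, Tbxas1, Alox5, Alox5ap, Alox15, Ltc4s and Lta4h. They were taken by symbol from a table of 49585 mouse genes, and all 10 were found in it. All passed the filter on low counts in both main fits. Ptgs1, Ptges and Ltc4s each lacked a value in an alternative fit of a steady-state comparison. The table holds 18 RNA-Seq libraries in 6 groups of 3. The mice were of the Kaede strain, which carries a photoconvertible fluorescent protein. Those of the 4 inflamed groups received OT-II Th1 cells and were immunized with ovalbumin in complete Freund's adjuvant. For the 4 inflamed groups, 100 μg of heat-aggregated ovalbumin (HAO) was then given into the footpad (joint) or the ear pinna (skin), the tissue was illuminated, and CD45+ Kaede red+ cells were sorted a day later. Red cells still in the tissue are the joint nonmigrated and skin nonmigrated groups, and red cells recovered from the draining lymph node are the joint migrated and skin migrated groups. The 2 remaining groups are labelled as CD45+ leukocytes that had moved from joint or ear to the node in the steady state. Titles of the joint steady-state libraries carry PBS and the unexplained letters KG, and those of the skin steady-state libraries carry Naive, so these groups may also differ from each other in preparation. Whether the steady-state cells were sorted as Kaede red+, and whether their mice received Th1 cells and were immunized, is not settled by the labels. Every comparison of migrated with steady-state cells given here carries both doubts. Mice were young and matched for age and sex. Each inflamed library is a pool of mice, and nothing in the labels ties replicate numbers to animals, so p values measure the spread between these libraries. A sorted leukocyte mixture does not separate fewer cells of a type from less RNA per cell, which holds for every difference given here.

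Arachidonic acid, once freed from membranes by phospholipases, enters either of these routes. In the prostanoid route the cyclooxygenases Ptgs1 (constitutive in many cells) and Ptgs2 (induced by inflammatory signals) make prostaglandin H, which Ptges turns into prostaglandin E, Hpgds into prostaglandin D and Tbxas1 into thromboxane A. In the leukotriene route Alox5, the 5-lipoxygenase, works with Alox5ap, the membrane protein that presents its substrate, to make leukotriene A, which Lta4h hydrolyses to leukotriene B, a chemoattractant for neutrophils, and Ltc4s joins to glutathione as leukotriene C. Alox15 encodes the 12/15-lipoxygenase, which makes hydroxylated fatty acids and precursors of lipoxins. Myeloid cells and mast cells are known as main sources of these mediators in inflamed joints and skin.

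On the GRCm38 assembly, all 10 are protein-coding genes. Ptgs1 (ENSMUSG00000047250) lies at chr2:36230426-36252272 on the plus strand, Ptgs2 (ENSMUSG00000032487) at chr1:150100031-150108227 on the plus strand and Ptges (ENSMUSG00000050737) at chr2:30889471-30929863 on the minus strand. Chromosome 6 holds Hpgds (ENSMUSG00000029919; chr6:65117293-65144908, minus), Tbxas1 (ENSMUSG00000029925; chr6:38875404-39084585, plus) and Alox5 (ENSMUSG00000025701; chr6:116410077-116461178, minus). Alox5ap (ENSMUSG00000060063) lies at chr5:149264767-149288153 on the plus strand and Lta4h (ENSMUSG00000015889) at chr10:93453411-93484875 on the plus strand. Chromosome 11 holds Alox15 (ENSMUSG00000018924; chr11:70344152-70352031, minus) and Ltc4s (ENSMUSG00000020377; chr11:50236461-50238616, minus). Whether the libraries keep strand is not given in the sources used here, which matters for Ltc4s, of whose exon bases 26.4% also lie in exons of the antisense gene Gm26542, and for Alox5ap, which shares 13.3% with Gm19719.

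Promoter sequences of 8 of the 10 genes were found in RefSeq (GRCm38.p6). Shown are the 250 bases before the start site, 5′ to 3′ on the coding strand, of the paired cyclooxygenases Ptgs1 and Ptgs2, of Ptges, whose difference between joint and skin ran opposite to that of Ptgs1, of Tbxas1 and Alox5, whose levels followed Ptgs1 most closely, and of Lta4h, whose level varied least. The motifs were chosen with the results known and were searched on both strands. They were the TATA box with the letters TATAAA, the GC box with the letters GGGCGG, the AP-1 motif with the letters TGANTCA and the cyclic AMP response core with the letters TGACGT. Also searched were the PU.1 motif with the letters GAGGAAG, the E-box with the letters CACGTG and an NF-kB motif. Capitals mark their matches. In Tbxas1 the TATA box was matched on both strands with overlapping letters, directly after the PU.1 match.
Ptgs1: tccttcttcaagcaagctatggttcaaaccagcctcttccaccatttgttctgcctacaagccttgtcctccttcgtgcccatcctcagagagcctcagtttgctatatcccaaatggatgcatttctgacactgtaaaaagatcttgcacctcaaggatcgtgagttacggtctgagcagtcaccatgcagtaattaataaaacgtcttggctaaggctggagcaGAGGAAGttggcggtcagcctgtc
Ptgs2: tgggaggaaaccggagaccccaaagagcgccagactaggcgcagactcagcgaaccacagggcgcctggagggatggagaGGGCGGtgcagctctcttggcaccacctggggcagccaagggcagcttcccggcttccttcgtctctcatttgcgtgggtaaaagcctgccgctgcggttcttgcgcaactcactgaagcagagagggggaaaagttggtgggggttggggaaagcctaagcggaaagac
Ptges: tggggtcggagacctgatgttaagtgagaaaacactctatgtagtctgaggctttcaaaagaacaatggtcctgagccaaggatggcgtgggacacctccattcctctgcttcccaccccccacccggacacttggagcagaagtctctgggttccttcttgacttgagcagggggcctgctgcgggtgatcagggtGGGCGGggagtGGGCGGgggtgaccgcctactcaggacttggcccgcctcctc
Tbxas1: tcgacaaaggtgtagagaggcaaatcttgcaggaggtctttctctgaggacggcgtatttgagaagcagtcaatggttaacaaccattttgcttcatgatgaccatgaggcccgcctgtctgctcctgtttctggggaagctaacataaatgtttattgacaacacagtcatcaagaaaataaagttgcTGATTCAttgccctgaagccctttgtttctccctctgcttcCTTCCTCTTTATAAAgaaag
Alox5: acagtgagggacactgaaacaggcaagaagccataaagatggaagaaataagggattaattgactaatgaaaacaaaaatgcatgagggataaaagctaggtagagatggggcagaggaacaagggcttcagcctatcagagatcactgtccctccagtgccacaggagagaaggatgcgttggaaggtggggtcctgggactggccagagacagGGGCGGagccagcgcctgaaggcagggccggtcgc
Lta4h: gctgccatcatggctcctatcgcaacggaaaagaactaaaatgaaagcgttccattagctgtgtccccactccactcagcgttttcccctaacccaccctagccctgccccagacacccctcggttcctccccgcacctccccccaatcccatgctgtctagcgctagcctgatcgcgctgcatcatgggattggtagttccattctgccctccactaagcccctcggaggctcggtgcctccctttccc

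These windows lie at chr2:36230176-36230425 (Ptgs1), chr1:150099781-150100030 (Ptgs2), chr2:30903298-30903547 (Ptges, minus strand), chr6:38918736-38918985 (Tbxas1), chr6:116461179-116461428 (Alox5, minus strand) and chr10:93453146-93453395 (Lta4h). The RefSeq starts of Ptges and Tbxas1 lie inside the gene spans given above, as do those of Hpgds and Ltc4s, whose windows are not shown. Annotated exons cover 183 of the 250 bases for Ptgs2, 146 for Tbxas1, 178 for Hpgds and 84 for Ltc4s. The Ptgs2 window overlaps an exon of the antisense gene Ptgs2os. The PU.1 letters GAGGAAG, the core bound by a myeloid transcription factor, stood in the windows of Ptgs1, Tbxas1 and Hpgds, 3 of the 8 read, against 10.6% of 32841 RefSeq windows of this length. GGGCGG stood in those of Ptgs2, Ptges and Alox5, against 32.7% of all windows, and TATAAA in that of Tbxas1 alone, against 12.4%. TGANTCA stood only in that of Tbxas1 (6.75% of all windows), and TGACGT (6.47%), the NF-kB motif (1.41%) and CACGTG (6.02%) in none of the 8. A match describes the letters of the window and no binding was measured. Letters past the RefSeq start were not searched, so an absence holds for these windows only and not for the whole promoter.

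Assigned counts per library ran from 19239531 to 43814403. Among the inflamed groups they split by site, at 19239531 to 22528895 in skin and 35554698 to 43814403 in joint libraries. A difference between joint and skin therefore cannot be told apart from a difference in how the libraries of each site were made. Levels are given as CPM, counts scaled to library size with the trimmed mean of M values (TMM) correction, and 3 counts, taken as the floor, equal 0.0616 to 0.18 CPM. Ptprc, which encodes CD45, was at 1160 to 2530 CPM in all libraries. The summed level of 7 neutrophil markers was 5140 to 16000 CPM in joint nonmigrated, 1580 to 2600 in skin nonmigrated, 34.5 to 89.8 in joint migrated and 13.4 to 26.0 in skin migrated libraries, and 8 macrophage and monocyte markers summed to 6330 to 9550, 1670 to 7190, 38.9 to 109 and 75.9 to 159 CPM. The summed markers of dendritic, B and T cells were higher in both migrated groups than in the cells left in the tissue at the same site, although the dendritic marker Itgax was lower in migrated cells at both sites (74.5 to 95.3 against 150 to 261 CPM) and Xcr1 and Clec9a were lower in the skin. The steady-state libraries held mostly lymphocyte markers (7 dendritic cell markers summed to 25.6 to 36.8 CPM, against 1740 to 5310 in the migrated groups). Skin nonmigrated replicate 3 stood apart from its group, with macrophage, mast cell and eosinophil markers above the other replicates. Since the gates took CD45+ cells of every type, these markers move with the groups in every comparison that follows, and their part in the results was not tested.

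In the inflamed tissue, the leukotriene helper Alox5ap and the inducible cyclooxygenase Ptgs2 were the most abundant of the 10 per length of transcript. In joint nonmigrated cells Alox5ap reached 448 ± 56.4 CPM per kilobase of exon (mean ± SD, n = 3) and Ptgs2 114 ± 62.0, followed by Ltc4s (38.6 ± 16.2), Alox5 (38.0 ± 7.79), Lta4h (35.7 ± 10.6) and Tbxas1 (23.8 ± 3.82). The means of Ltc4s, Alox5 and Lta4h differed by less than their spread, and Ptgs1, Alox15, Hpgds and Ptges lay at 8.53 ± 1.91 to 3.75 ± 1.20 CPM per kilobase. In skin nonmigrated cells Alox5ap (301 ± 100) and Ptgs2 (181 ± 67.5) again led, Ptges followed at 27.9 ± 6.28, and Ptgs1 was last at 1.74 ± 0.534 CPM per kilobase.

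In every lymph node group the order was different, with Lta4h at or next to the top. It stood at 19.3 ± 2.45 CPM per kilobase in joint migrated, 18.9 ± 0.204 in skin migrated, 15.3 ± 0.847 in joint steady-state and 15.6 ± 0.498 in skin steady-state cells. Alox5ap was at 10.4 ± 4.18 and 10.1 ± 3.67 CPM per kilobase in joint and skin migrated cells, within the spread of Ptgs2 (9.63 ± 7.40 and 7.87 ± 5.16) and Ltc4s (6.63 ± 2.54 and 8.21 ± 1.51). Of the steady-state groups, Alox5ap passed Lta4h in the joint group (19.3 ± 1.57) and not in the skin group (2.86 ± 0.180). Ptges was last in skin migrated cells and in both steady-state groups, at 0.137 ± 0.0748, 0.0547 ± 0.0182 and 0.00963 ± 0.00876 CPM per kilobase.

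**Figure D1:**
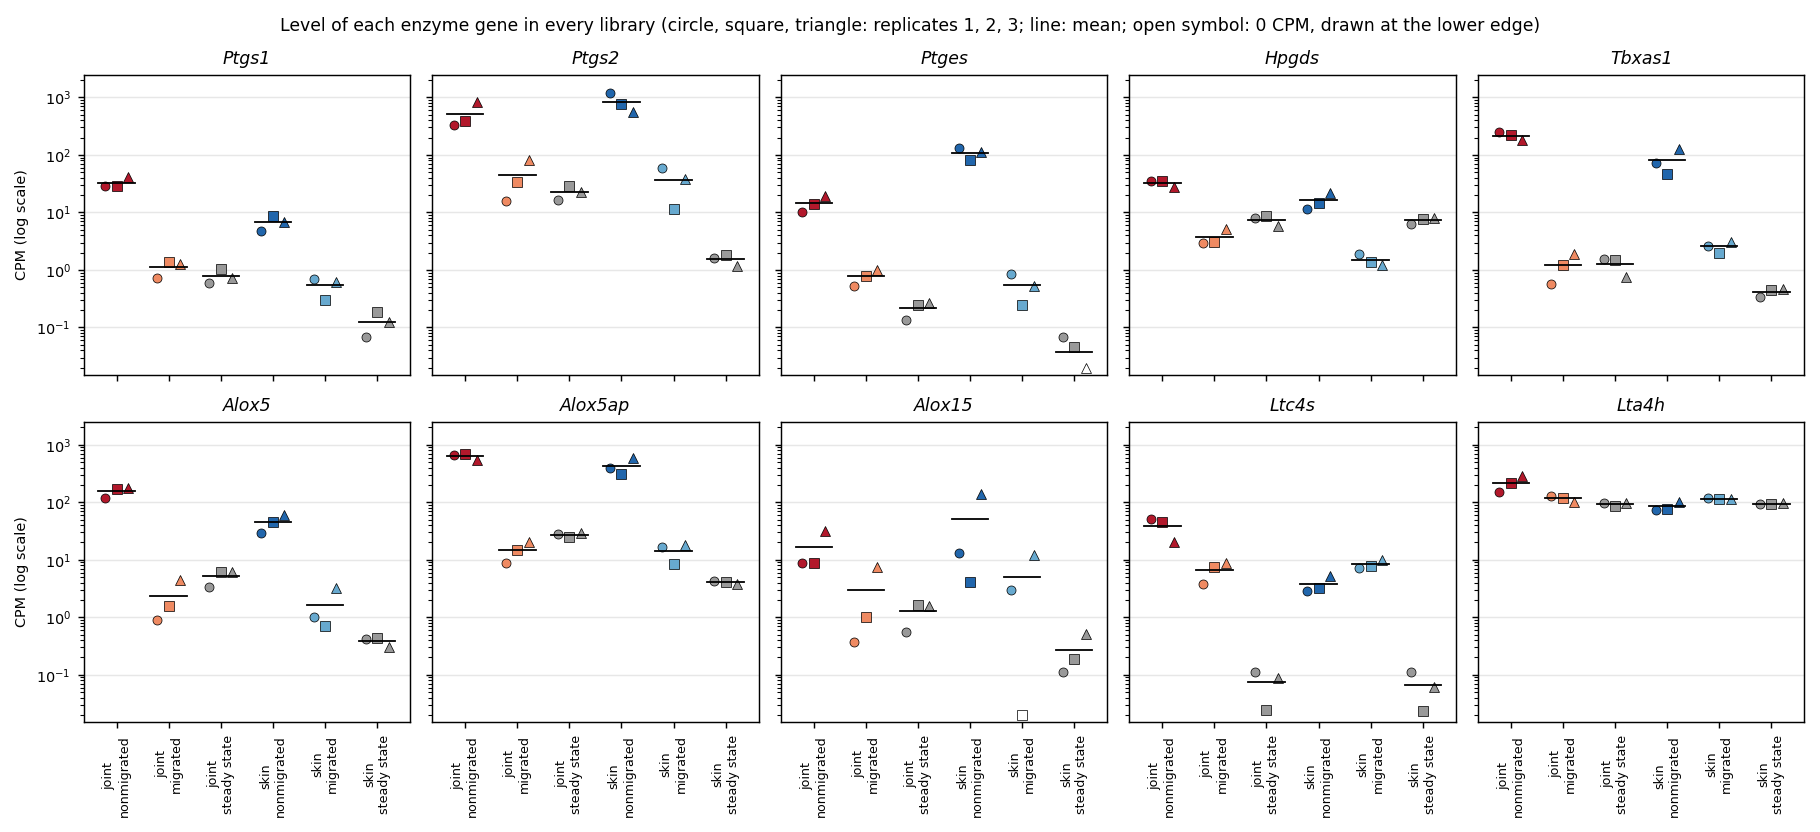
CPM on a log axis for each of the 10 genes in the 18 libraries, by group; circles, squares and triangles are replicates 1, 2 and 3, lines are group means, and open symbols are libraries at 0. Lta4h lies between 74.5 and 282 CPM throughout, whereas Ltc4s is at 0.112 CPM or less in the steady-state libraries and at 2.82 CPM or more in the inflamed ones.

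To ask how the cells that left the joint differ from those that stayed, joint migrated was compared with joint nonmigrated cells. Of the 10 genes, 7 were lower in the migrated cells and none was higher, where 12.6% of 16777 genes tested were called lower and 21.4% in either direction. Calls required an adjusted p below 0.001, from edgeR's quasi-likelihood test with Benjamini-Hochberg adjustment over all genes tested, and an absolute log2 fold change above 1. The groups did not overlap for any of the 10, against 65.5% of genes tested, and the median log2 fold change was -3.91 for the 10 and 0.02 for all genes tested. In the skin, 7 of the 10 were likewise called lower in migrated than nonmigrated cells, where 12.4% of genes tested were and 20.9% in either direction. The median log2 fold change there was -4.08 against 0.01, and the groups did not overlap for 9 of the 10 (all but Alox15), against 61.6% of genes tested. The 2 lists shared 6 genes, Ptgs1, Ptges, Hpgds, Tbxas1, Alox5 and Alox5ap. Ltc4s was called in the joint alone and Ptgs2 in the skin alone, which by itself does not show that the sites differ.

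Of the cyclooxygenases, Ptgs1 was at 28.5, 29.2 and 41.7 CPM in joint nonmigrated replicates 1 to 3 and at 0.718, 1.40 and 1.29 CPM in the migrated replicates. Every migrated library was below every nonmigrated one, and Ptgs1 fell by 4.86 on the log2 scale (SE 0.353, adjusted p = 1.06e-06). In the skin it was at 4.68, 8.82 and 6.81 CPM in nonmigrated and 0.698, 0.300 and 0.620 CPM in migrated libraries, again without overlap, and fell by 3.63 (SE 0.379, adjusted p = 1.21e-05).

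Ptgs2, the inducible cyclooxygenase, was at 327, 395 and 849 CPM in joint nonmigrated and 16.1, 34.4 and 81.7 CPM in joint migrated libraries. Replicate 3 was the highest in both groups. The log2 fold change of -3.57 (SE 0.694, adjusted p = 0.00105) lay just outside the threshold, and without joint migrated replicate 3 it was -4.35 (adjusted p = 0.000765). In the skin, Ptgs2 was at 1170, 757 and 562 CPM in nonmigrated and 58.9, 11.7 and 37.5 CPM in migrated cells and fell by 4.53 (SE 0.728, adjusted p = 0.000276). That call was lost without skin nonmigrated replicate 1 (log2 fold change -4.20, adjusted p = 0.00103) or skin migrated replicate 3 (-4.58, adjusted p = 0.00188).

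The 3 terminal prostanoid synthases among the 10 were all called lower in migrated cells at both sites. Tbxas1, the thromboxane synthase, was at 247, 223 and 179 CPM in joint nonmigrated and 0.575, 1.21 and 1.91 CPM in joint migrated libraries. It fell by 7.45 (SE 0.491, adjusted p = 6e-07), the largest fall among the 10 in the joint. In the skin it went from 73.3, 46.2 and 129 CPM to 2.65, 2.00 and 3.10 CPM, a log2 fold change of -5.00 (SE 0.449, adjusted p = 4.09e-06). Platelets also use thromboxane synthase and Ptgs1, and 5 platelet and megakaryocyte markers summed to 96.5 to 184 CPM in joint nonmigrated, 90.3 to 365 in skin nonmigrated and 2.01 to 8.42 in migrated libraries. Of the markers that define platelets, Gp9 was at 0.233 to 0.541 and Gp1bb at 0.301 to 0.842 CPM in joint nonmigrated libraries, against 0 to 0.107 and 0 to 0.0821 CPM in joint migrated ones, and both were at or under 3 counts in the skin groups. Their part in the result was not tested.

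Ptges, the inducible prostaglandin E synthase, had its largest fall in the skin. It was at 132, 83.0 and 114 CPM in skin nonmigrated and 0.838, 0.250 and 0.532 CPM in skin migrated libraries. It fell by 7.65 (SE 0.413, adjusted p = 1.1e-07), the largest fall among the 10 there. In the joint Ptges was at 10.3, 14.2 and 19.7 CPM in nonmigrated and 0.534, 0.794 and 0.986 CPM in migrated cells, and it fell by 4.25 (SE 0.348, adjusted p = 2.35e-06). Hpgds, the hematopoietic prostaglandin D synthase, fell less. It went from 34.8, 35.7 and 27.3 CPM to 2.89, 3.08 and 5.14 CPM in the joint (log2 fold change -3.13, SE 0.296, adjusted p = 5.81e-06) and from 11.7, 14.8 and 22.2 CPM to 1.91, 1.40 and 1.20 CPM in the skin (-3.44, SE 0.319, adjusted p = 5.19e-06).

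Of the leukotriene route, Alox5 and its partner Alox5ap fell at both sites. Alox5 was at 119, 169 and 179 CPM in joint nonmigrated and 0.883, 1.56 and 4.52 CPM in joint migrated libraries, a log2 fold change of -6.06 (SE 0.647, adjusted p = 1.41e-05). In the skin it was at 28.9, 44.9 and 60.4 CPM against 1.02, 0.699 and 3.28 CPM, a log2 fold change of -4.73 (SE 0.644, adjusted p = 8.4e-05). Within each of these 4 groups Alox5 was highest in replicate 3. Alox5ap went from 667, 696 and 545 CPM to 8.64, 14.9 and 20.5 CPM in the joint, a log2 fold change of -5.43 (SE 0.404, adjusted p = 1.22e-06), and from 388, 310 and 586 CPM to 16.4, 8.49 and 18.3 CPM in the skin, a log2 fold change of -4.89 (SE 0.396, adjusted p = 2e-06). The antisense gene Gm19719, which overlaps Alox5ap, was at 5.46 to 8.63 CPM in nonmigrated and 0.0616 to 0.300 CPM in migrated libraries.

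The enzymes that use leukotriene A behaved otherwise. Lta4h, which makes leukotriene B, was at 153, 219 and 282 CPM in joint nonmigrated and 131, 121 and 102 CPM in joint migrated libraries. Its log2 fold change of -0.89 (SE 0.199, adjusted p = 0.00266) did not pass, though it was -1.09 without joint nonmigrated replicate 1, which is the lowest of its group, and then passed (adjusted p = 0.000379). In the skin Lta4h was at 74.5, 77.1 and 103 CPM in nonmigrated and 117, 114 and 115 CPM in migrated cells, with a log2 fold change of 0.44 (SE 0.199, adjusted p = 0.0766).

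Ltc4s, which makes leukotriene C, was at 51.1, 46.0 and 20.4 CPM in joint nonmigrated and 3.84, 7.52 and 8.81 CPM in joint migrated libraries. It fell by 2.54 (SE 0.386, adjusted p = 0.000187), a call that was lost without joint nonmigrated replicate 2 (-2.41, adjusted p = 0.00102) or joint migrated replicate 2 (-2.63, adjusted p = 0.00117). In the skin the order of the groups was the opposite, with 2.82, 3.21 and 5.14 CPM in nonmigrated and 7.17, 7.74 and 10.1 CPM in migrated cells, and the log2 fold change was 1.15 (SE 0.396, adjusted p = 0.0265). Gm26542, which overlaps Ltc4s on the other strand, was at 0.208 to 2.40 CPM in these 12 libraries. Mast cells use Ltc4s, and 7 mast cell markers summed to 182, 205 and 414 CPM in joint nonmigrated and 34.2, 156 and 280 CPM in joint migrated replicates 1 to 3. In the skin they summed to 58.6, 70.9 and 361 CPM in nonmigrated replicates 1 to 3 and to 20.6 to 25.5 CPM in migrated libraries. Much of the low skin sums was Kit, at 31.4 and 44.4 CPM in nonmigrated replicates 1 and 2 and 16.4 to 20.1 CPM in migrated libraries. Each of the other mast cell markers was at 0.0999 to 1.68 CPM in skin migrated libraries. Their part in the level of Ltc4s was not tested.

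**Figure D2:**
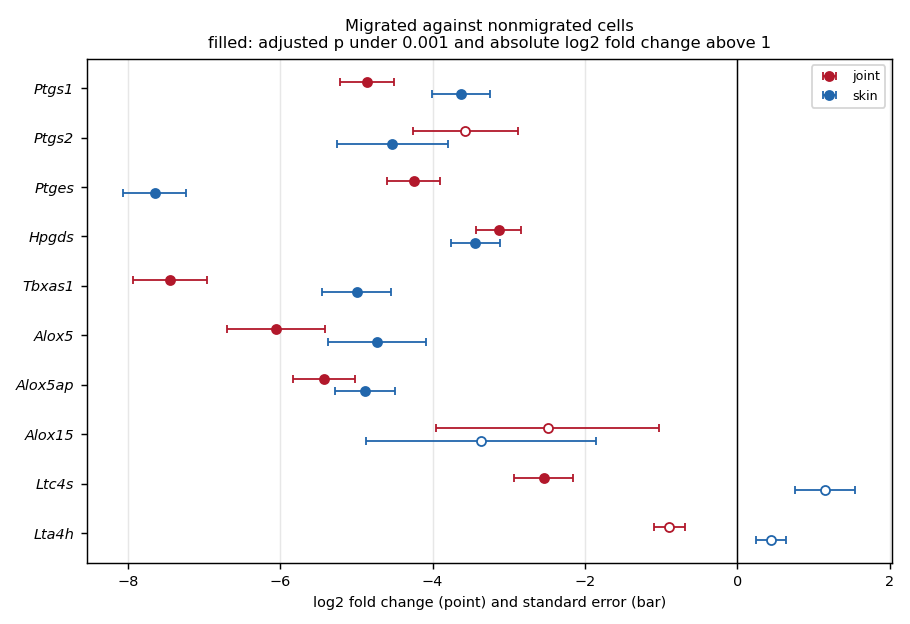
Log2 fold change of migrated against nonmigrated cells in the joint and the skin for the 10 genes; bars are standard errors and filled points were called. Points of 7 genes are filled at each site and lie between -2.54 and -7.65, and Ltc4s and Lta4h lie on opposite sides of 0 at the 2 sites.

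The test of whether this difference itself differed between joint and skin (the interaction of site and migration) called none of the 10 at an adjusted p under 0.001, where 0.119% of genes tested were called. At an adjusted p under 0.05 with the same fold limit it passed for 4 of the 10, against 6.13% of genes tested. The change of Ptges was less negative in the joint by 3.40 (log2, SE 0.516, adjusted p = 0.0041). The changes of Ltc4s (-3.69, SE 0.550, adjusted p = 0.00404), Tbxas1 (-2.45, SE 0.584, adjusted p = 0.0276) and Lta4h (-1.33, SE 0.281, adjusted p = 0.0165) were more negative in the joint. Ptgs2 gave 0.96 (SE 0.893, adjusted p = 0.528), so that the call in the skin alone, described above, was not matched by a detectable difference between sites. Alox15 and its spread are described separately below.

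The site comparison asked which genes distinguish cells that stayed in the joint from cells that stayed in the skin. Of the 10 genes, 3 were called higher in joint nonmigrated cells, where 1.14% of genes tested were, and 1 lower, where 1.90% were (3.05% in either direction). The groups did not overlap for 7 of the 10, against 37.9% of genes tested. Ltc4s was higher in the joint by 3.39 on the log2 scale (SE 0.412, adjusted p = 0.000286), Ptgs1 by 2.29 (SE 0.313, adjusted p = 0.000527) and Lta4h by 1.36 (SE 0.201, adjusted p = 0.000824). Ptges, from the opposite side, was lower in the joint with a log2 fold change of -2.90 (SE 0.304, adjusted p = 0.00013), at 10.3 to 19.7 CPM against 83.0 to 132 CPM.

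Of the other 6, Alox5 (1.80, SE 0.528, adjusted p = 0.0266), Tbxas1 (1.38, SE 0.367, adjusted p = 0.0172) and Hpgds (1.00, SE 0.275, adjusted p = 0.0201) had higher values in every joint library than in any skin library but did not pass. Ptgs2 (-0.67, SE 0.629), Alox5ap (0.57, SE 0.334) and Alox15 (-1.62, SE 1.38) overlapped. The 4 calls were sensitive to single libraries. The count was 1 without skin nonmigrated replicate 1 or 2 (Ptges in each case), 2 without joint nonmigrated replicate 1 or 3, and 0 without joint nonmigrated replicate 2. It was 4 without skin nonmigrated replicate 3, the library that stood apart. Fold changes moved little across these fits, from 3.15 to 3.29 for Ltc4s where its call was lost, from 2.08 to 2.52 for Ptgs1 and from 1.13 to 1.36 for Lta4h, while the adjusted p of Ptges rose to 0.00136 without joint nonmigrated replicate 2.

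The balance between paired enzymes was read as a ratio within each library. Per length of transcript, Ptgs2 was at 9.74 to 17.3 times the level of Ptgs1 in joint nonmigrated libraries and at 70.1 to 212 times in skin nonmigrated ones. Ptges was at 0.0963 to 0.255 times the level of Tbxas1 in the joint and at 2.05 to 4.15 times in the skin. These ranges do not overlap between sites. Alox5ap stood at 8.80 to 16.1 times Alox5 in the joint and 19.9 to 38.8 times in the skin, and Ltc4s at 0.435 to 2.02 times Lta4h in the joint and 0.228 to 0.302 times in the skin. Beside these ratios, the neutrophil and macrophage marker sums given above were also higher in the joint. The macrophage sum of skin nonmigrated replicate 3 was the exception. The neutrophil markers Csf3r (329 to 579 CPM in the joint, 433 to 631 in the skin) and Cxcr2 (70.2 to 200 and 111 to 164) overlapped between sites. Of 3 basophil markers, Prss34 was higher in the joint (11.2 to 34.3 against 1.56 to 6.37 CPM). Mcpt8, Cd200r3 and the sum of the 3 were higher in the skin (sum 77.0 to 263 against 18.5 to 54.3 CPM). The keratinocyte genes Krt5 (12.3 to 149 against 0 to 0.465 CPM) and Krt14 (9.77 to 102 against 0 to 0.0821 CPM) and the dendritic cell sum (547 to 1430 against 250 to 373 CPM) were likewise higher in the skin, as was Ptges. Their part in the site differences was not tested.

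Among cells that had migrated, none of the 10 was called between joint and skin. None of the 16777 genes tested was called either (0.0%), although 2770 had an unadjusted p under 0.05 and the DESeq2 Wald test called 177. The groups did not overlap for 3 of the 10, against 28.2% of genes tested. Hpgds was higher in joint migrated cells, at 2.89 to 5.14 against 1.20 to 1.91 CPM (log2 fold change 1.31, SE 0.309, adjusted p = 0.0593), Ptgs1 was higher at 0.718 to 1.40 against 0.300 to 0.698 CPM (1.06, SE 0.387, adjusted p = 0.197), and Tbxas1 was lower at 0.575 to 1.91 against 2.00 to 3.10 CPM (-1.07, SE 0.455, adjusted p = 0.269). For Lta4h the log2 difference was 0.03 (SE 0.198) and for Alox5ap 0.03 (SE 0.344).

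**Figure D3:**
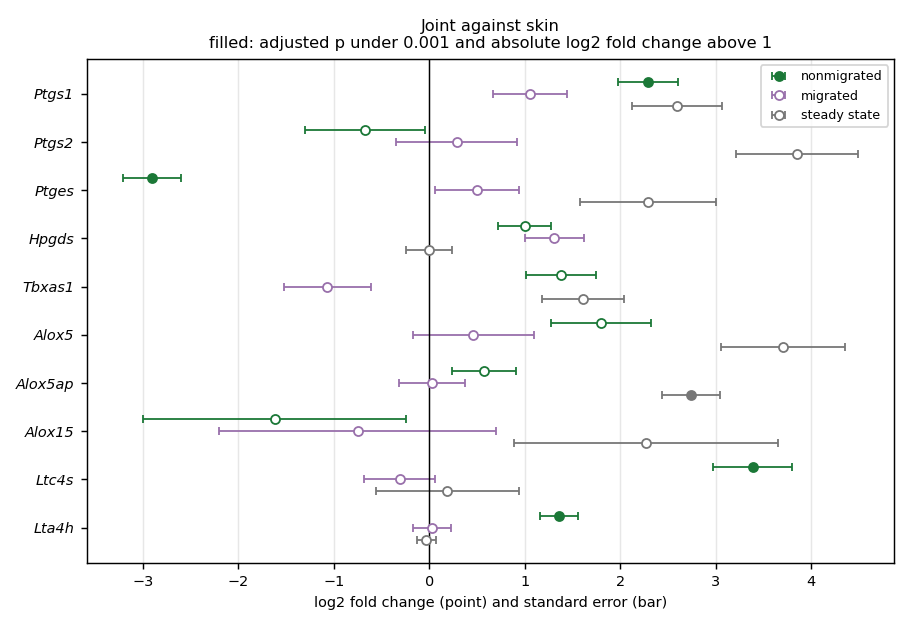
Log2 fold change of joint against skin for the 10 genes among nonmigrated, migrated and steady-state cells; bars are standard errors and filled points were called. Filled points are Ptgs1, Ltc4s and Lta4h above 0 and Ptges below 0 among nonmigrated cells, and Alox5ap among steady-state cells.

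Alox15 was the member whose level differed most between replicates of a group. It was at 8.97, 8.80 and 32.3 CPM in joint nonmigrated replicates 1 to 3, at 0.369, 1.00 and 7.50 CPM in joint migrated, at 13.0, 4.15 and 137 CPM in skin nonmigrated and at 3.02, 0 and 11.9 CPM in skin migrated libraries. Replicate 3 was the highest in all 4 groups. Its log2 fold change between migrated and nonmigrated cells was -2.49 in the joint (SE 1.46, adjusted p = 0.167) and -3.36 in the skin (SE 1.51, adjusted p = 0.0756), neither of which passed. The joint value ran from -1.59 without joint nonmigrated replicate 3 to -4.58 without joint migrated replicate 3, and the skin value from -0.78 without skin nonmigrated replicate 3 to -5.08 without skin migrated replicate 3. With replicate 3 of every group left out, an alternative chosen after seeing the data, the values were -3.68 (adjusted p = 0.0279) and -2.52 (adjusted p = 0.0937). Between joint and skin nonmigrated cells the value of -1.62 became 0.96 (adjusted p = 0.613) without skin nonmigrated replicate 3.

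Eosinophils and resident macrophages are known to express Alox15 in mice. The summed level of 5 eosinophil markers was 17.6, 30.2 and 93.4 CPM in joint nonmigrated and 13.0, 5.61 and 81.0 CPM in skin nonmigrated replicates 1 to 3. Siglecf, a surface receptor of eosinophils, had the pattern most like Alox15 over the 18 libraries (Pearson r = 0.986 of log2(CPM + 1)), at 9.65 CPM in joint nonmigrated replicate 3 and 26.7 CPM in skin nonmigrated replicate 3, where its other values in the nonmigrated groups were 2.28 to 4.92 CPM. Epx, the eosinophil peroxidase, was at 2.38 to 18.3 CPM in joint nonmigrated libraries and at or under 0.052 CPM in skin nonmigrated ones. Mast cell markers were also highest in replicate 3, at 414 CPM in the joint and 361 CPM in the skin, as was the macrophage sum of the skin (7190 CPM). In the joint the macrophage sum was instead lowest in replicate 3 (6330 against 8500 and 9550 CPM). The part of these cells in the level of Alox15 was not tested.

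**Figure D4:**
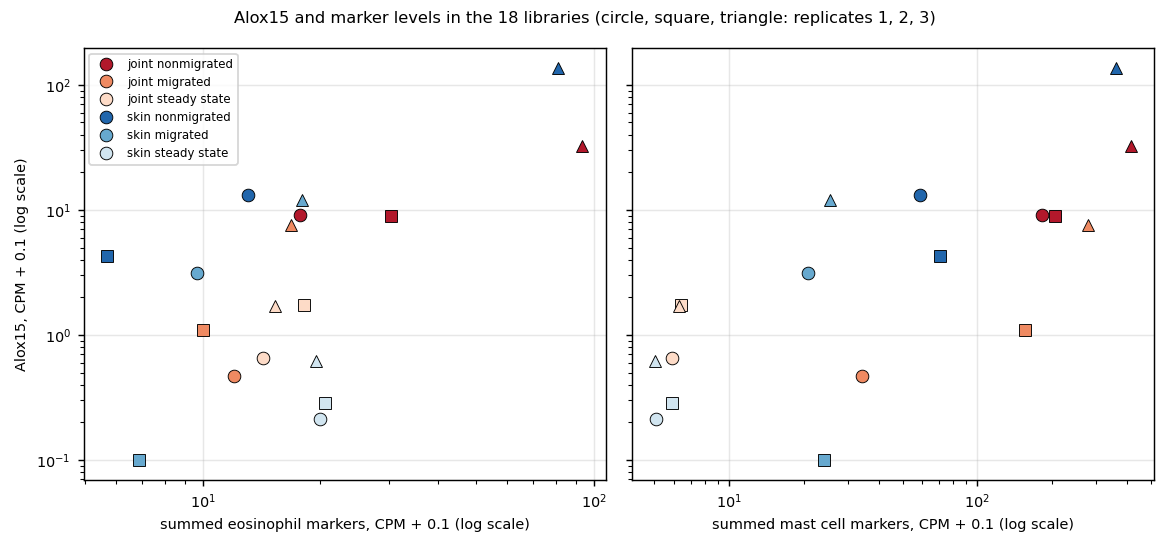
Alox15 against the summed level of eosinophil markers and of mast cell markers in the 18 libraries, all in CPM plus 0.1 on log axes, with circles, squares and triangles for replicates 1, 2 and 3. The libraries with the most Alox15, skin nonmigrated replicate 3 at 137 CPM and joint nonmigrated replicate 3 at 32.3 CPM, are also those with the most eosinophil marker (81.0 and 93.4 CPM).

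Migrated cells of the inflamed sites were then compared with the steady-state cells of the same node. In the joint, 1 of the 10 genes was called, Ltc4s, where 15.9% of 17107 genes tested were called in either direction. In the skin 6 were called, where 25.1% of genes tested were. Of these, 5 were higher in migrated than in steady-state cells (Ltc4s, Ptgs2, Ptges, Tbxas1 and Alox5ap) and Hpgds was lower, where 16.6% and 8.51% of genes tested were called. Groups did not overlap for 5 of the 10 in the joint and 9 in the skin, against 57.5% and 71.2% of genes tested, so the joint counts lie below the background and the skin counts moderately above it. The 2 comparisons have no library in common.

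The call shared by both nodes was Ltc4s. It was at 0.111, 0.0245 and 0.0887 CPM in joint steady-state and 0.112, 0.0231 and 0.0611 CPM in skin steady-state libraries, which is 1 to 5 counts a library. In migrated cells it was at 3.84, 7.52 and 8.81 CPM (joint) and 7.17, 7.74 and 10.1 CPM (skin). The fitted log2 fold changes were 6.43 (SE 0.464, adjusted p = 1.43e-07) and 6.94 (SE 0.481, adjusted p = 4.98e-08), and their size rests on those few counts. The antisense gene Gm26542 was at 0.222 to 0.810 CPM in the steady-state and 0.801 to 2.40 CPM in the migrated libraries. Mast cell markers summed to 4.95 to 6.28 CPM in the steady-state libraries, and dendritic cell markers moved with Ltc4s as given above.

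In the skin-draining node, Ptgs2 went from 1.61, 1.83 and 1.19 CPM in the steady state to 58.9, 11.7 and 37.5 CPM in migrated cells and rose by 4.56 on the log2 scale (SE 0.653, adjusted p = 4.16e-05). In the joint-draining node, steady-state cells already had 16.3, 29.3 and 22.5 CPM against 16.1, 34.4 and 81.7 CPM in migrated cells, and the groups overlapped (log2 fold change 0.99, SE 0.532, adjusted p = 0.14). Ptges had at most 3 counts in each skin steady-state library, and skin migrated cells were at least 7.09-fold higher, computed from the group mean against the mean floor of 3 counts per library. The fit gave 3.66 (SE 0.682, adjusted p = 0.00039), which is no bound. In the joint Ptges was at 0.133, 0.245 and 0.266 CPM against 0.534, 0.794 and 0.986 CPM (log2 fold change 1.86, SE 0.494, adjusted p = 0.00675).

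Hpgds was the gene called lower in the skin node, from 6.35, 7.71 and 8.0 CPM to 1.91, 1.40 and 1.20 CPM, a log2 fold change of -2.26 (SE 0.273, adjusted p = 8.8e-06). In the joint it was at 7.98, 8.51 and 5.70 CPM against 2.89, 3.08 and 5.14 CPM, a log2 fold change of -0.96 (SE 0.244, adjusted p = 0.00506), which was -1.27 and passed (adjusted p = 0.00078) without joint migrated replicate 3. Tbxas1 rose in the skin node from 0.336, 0.440 and 0.458 CPM to 2.65, 2.00 and 3.10 CPM (2.68, SE 0.435, adjusted p = 0.000123), and gave -0.01 (SE 0.389, adjusted p = 0.987) in the joint node. Alox5ap rose in the skin node from 4.33, 4.05 and 3.82 CPM to 16.4, 8.49 and 18.3 CPM (1.86, SE 0.300, adjusted p = 0.000119), and was lower in every migrated library of the joint than in its steady-state libraries (28.2, 24.9 and 29.1 CPM), with a log2 fold change of -0.87 (SE 0.278, adjusted p = 0.019).

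The summed macrophage and monocyte markers were at 11.8 to 17.0 CPM in skin steady-state and 75.9 to 159 CPM in skin migrated libraries, and at 58.2 to 107 and 38.9 to 109 CPM in those of the joint, and their part in these differences was not tested.

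The skin calls depended on single libraries. The count was 3 without skin steady-state replicate 2, 4 without replicate 1 or replicate 3 of that group, and 5 without skin migrated replicate 1 or 3. Ptges lost its call in all 5 of those fits (adjusted p = 0.00132 to 0.00273), Tbxas1 without skin steady-state replicate 1 (adjusted p = 0.00134) or 2 (0.00103), and Alox5ap without skin steady-state replicate 2 (0.00108) or 3 (0.00118). Ltc4s, Ptgs2 and Hpgds kept theirs in each fit that left out 1 library. Of the 4 genes not called in the skin, Ptgs1 gave 2.12 (SE 0.512, adjusted p = 0.00257), Alox5 2.11 (SE 0.672, adjusted p = 0.014), Alox15 4.29 (SE 1.37, adjusted p = 0.0143) and Lta4h 0.31 (SE 0.0973, adjusted p = 0.0129).

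**Figure D5:**
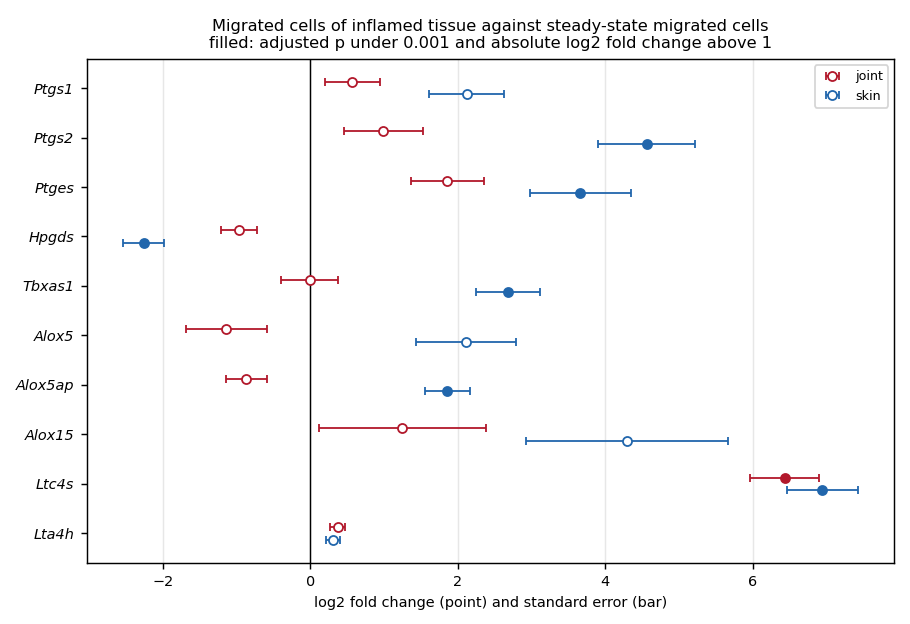
Log2 fold change of migrated cells of inflamed tissue against steady-state cells of the node of the same site, for the 10 genes; bars are standard errors and filled points were called. Ltc4s is filled at both sites (6.43 and 6.94), and of the other 9 genes 5 are filled, all in the skin.

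At steady state the joint and skin nodes differed in 1 of the 10 genes, Alox5ap, where 1.44% of genes tested were called (1.40% higher in the joint). It was at 24.9 to 29.1 CPM in the joint and 3.82 to 4.33 CPM in the skin group (log2 fold change 2.74, SE 0.302, adjusted p = 8.7e-05), and its adjusted p was 0.00116, 0.00118 and 0.00147 without skin steady-state replicates 1, 2 and 3, so that each of these ended the call. At an adjusted p under 0.05 with the same fold limit 5 of the 10 passed, against 3.89% of genes tested. Besides Alox5ap these were Ptgs2 (3.85, SE 0.639, adjusted p = 0.00201), Alox5 (3.71, SE 0.648, adjusted p = 0.00287), Ptgs1 (2.60, SE 0.472, adjusted p = 0.00381) and Tbxas1 (1.61, SE 0.430, adjusted p = 0.0362), all higher in the joint node. Alox5 was at 3.40, 6.09 and 6.19 CPM there against 0.426, 0.440 and 0.305 CPM. Groups did not overlap for 7 of the 10, against 31.1% of genes tested. Hpgds (-0.00, SE 0.239), Ltc4s (0.19, SE 0.753) and Lta4h (-0.03, SE 0.0970) overlapped. The summed level of neutrophil markers was 418 to 820 CPM in the joint and 11.1 to 17.9 CPM in the skin steady-state libraries, and its part in these differences was not tested.

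Whether the change from steady state differed between the nodes was tested as an interaction, a comparison added after seeing the data. None of the 10 was called, where 0.889% of genes tested were, and 5 passed an adjusted p under 0.05 with the same fold limit, against 6.11% of genes tested. The change was lower in the joint for Ptgs2 (-3.57, SE 0.820, adjusted p = 0.0159), Alox5 (-3.25, SE 0.868, adjusted p = 0.0318), Alox5ap (-2.73, SE 0.409, adjusted p = 0.00131) and Tbxas1 (-2.69, SE 0.582, adjusted p = 0.0116) and higher for Hpgds (1.30, SE 0.363, adjusted p = 0.0387). It uses the libraries of the steady-state comparison above and is not independent of it. Alox5ap passed the stricter threshold without skin migrated replicate 2 (-2.94, adjusted p = 0.000414), joint migrated replicate 1 (-2.45, adjusted p = 0.000665) or joint migrated replicate 3 (-2.98, adjusted p = 0.000536).

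Around these 10 genes, 50 others of the same pathway were read in 5 lists, and 42 of them were tested in the inflamed fit. In the joint 20 of the 42 were called between migrated and nonmigrated cells, 15 lower and 5 higher, and in the skin 22, of which 17 were lower and 5 higher. Of all genes tested 21.4% and 20.9% were called in either direction, and 12.6% and 12.4% lower. Among phospholipases, the cytosolic Pla2g4a, which frees arachidonate, fell by 3.33 (SE 0.347) in the joint and by 3.99 (SE 0.361) in the skin, and the platelet-activating factor hydrolase Pla2g7 fell by 5.57 at both sites (SE 0.498 and 0.499). Pla2g4f, of the same cytosolic family, ran the other way, at 0.356 to 0.531 CPM in joint nonmigrated and 25.8 to 40.4 CPM in joint migrated cells (log2 fold change 6.35, SE 0.452, adjusted p = 9.62e-07) and higher by 3.71 in the skin (SE 0.374, adjusted p = 9.42e-06). Pla2g4f was also higher in migrated than in steady-state cells, by 5.55 (SE 0.203) in the joint and 5.61 (SE 0.195) in the skin.

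The receptors were split. Of the prostanoid receptors, the thromboxane receptor Tbxa2r was higher in migrated cells, by 2.95 in the joint (SE 0.286, adjusted p = 7e-06) and 3.12 in the skin (SE 0.301, adjusted p = 6.97e-06), opposite in direction to the synthase Tbxas1. The prostacyclin receptor Ptgir fell by 2.87 (SE 0.221) and 2.81 (SE 0.226) and the prostaglandin E receptor Ptger2 by 1.88 (SE 0.177) and 2.80 (SE 0.187). Ptger4, another prostaglandin E receptor, ran the other way, at 45.1 to 63.0 CPM in skin nonmigrated and 183 to 204 CPM in skin migrated cells (log2 fold change 1.81, SE 0.198, adjusted p = 1.72e-05), and did not pass in the joint (0.85, SE 0.192, adjusted p = 0.00287). Ptgdr2, a prostaglandin D receptor, was higher in joint migrated cells by 3.19 (SE 0.478), and Ptger3 fell by 5.18 (SE 0.635) in the skin. Of the leukotriene and lipoxin receptors, 3 of 5 tested were called in the joint and 4 of 5 in the skin, all lower in migrated cells. Ltb4r1, the leukotriene B receptor, was at 106 to 126 CPM in joint nonmigrated and 8.71 to 12.6 CPM in joint migrated cells (log2 fold change -3.36, SE 0.168) and fell by 4.00 in the skin (SE 0.177), and Fpr2, which binds lipoxin A and formyl peptides, fell by 6.42 (SE 0.452) and 6.53 (SE 0.462).

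Of 10 tested synthases and breakdown enzymes 3 were called lower in joint migrated cells and 2 in skin migrated cells, including Ptgr1, which inactivates prostaglandins and leukotriene B (-3.89, SE 0.337 and -4.56, SE 0.360). Ptgis, the prostacyclin synthase, had at most 3 counts in the migrated libraries and was at least 4.65-fold higher in joint nonmigrated and at least 5.34-fold higher in skin nonmigrated cells. Of 12 tested lipoxygenases and leukotriene processing genes, 4 were called lower and 1 higher at each site. Dpep2, a peptidase that trims leukotriene D to leukotriene E, fell by 7.42 (SE 0.454) and 5.48 (SE 0.420). Alox8 was higher in joint migrated cells by 3.25 (SE 0.466).

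In nonmigrated cells 3 of the 42 differed between joint and skin, Pla2g4f (-3.69, SE 0.446), Ptger3 (-4.02, SE 0.574) and Alox8 (-3.60, SE 0.474), all lower in the joint. Of all genes tested 3.05% were called there in either direction and 1.90% lower. Among the node comparisons 36 of the 50 were tested. In the joint 6 were called higher and 3 lower in migrated than in steady-state cells, and in the skin 9 higher and 6 lower, where 15.9% and 25.1% of all genes tested were called in either direction. Ltb4r1 was higher at both sites, by 1.46 (SE 0.197) and 3.35 (SE 0.234), whereas Fpr2 fell by 2.23 (SE 0.408) in the joint and was higher by 3.56 (SE 0.544) in the skin. For Fpr2 (-5.80, SE 0.679, adjusted p = 0.000244), Dpep2 (-4.26, SE 0.544, adjusted p = 0.000426) and Pla2g7 (-4.77, SE 0.611, adjusted p = 0.000432) the change from steady state itself differed between the sites. These were 3 of the 36 in the interaction added after seeing the data, where 0.889% of all genes tested were called. Between the steady-state groups 5 of the 36 were called, all higher in the joint, with Fpr2 (5.29, SE 0.524), Pla2g7 (3.85, SE 0.466) and Dpep2 (3.17, SE 0.419) among them. Of all genes tested 1.44% were called there, and 1.40% were higher in the joint.

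The genes whose levels ran most like each member over the 18 libraries, by Pearson r of log2(CPM + 1) among 13549 genes with a mean of at least 1 CPM, are given as a description, since the libraries share groups and depth. Tbxas1 was most like Dpep2 (r = 0.996) and Clec12a (0.994), Alox5ap most like Ccl6 (0.995) and Cd300a (0.994), and Alox5 most like Rasgrp4 and Cebpd (0.991 each). Ptgs2 was most like Errfi1 (0.988) and the cytokine gene Il1b (0.982), Ptges most like the chemokine gene Cxcl3 (0.996), and Ptgs1 most like Cx3cr1 (0.982) and Fos (0.981). Hpgds was most like Mxra8 (0.975), Ltc4s most like Fam171a1 (0.977) and Lta4h most like R3hdm4 (0.960). Among the 10 themselves, Alox5 with Alox5ap (0.978), Tbxas1 with Alox5ap (0.968) and Ptgs1 with Alox5 (0.962) were most alike, and Ptges with Lta4h least (0.0948).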

How the data were processed

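CD45+ leukocytes, Kaede red+ in the 12 inflamed libraries, were measured by RNA-Seq in 18 libraries, 6 groups of 3. Per the study's methods, the authors trimmed paired reads with Trim Galore, aligned them with TopHat2 to mm10 with Ensembl 87 models and counted them with HTSeq under default settings, which leaves out reads that overlap 2 genes (1.843% to 2.371% of a library's total). The deposited values are raw counts per gene. From these counts, 5 summary lines were removed, symbols and positions were taken from GENCODE M21 (49326 of 49585 identifiers matched), and the 12 inflamed or 12 lymph node libraries were fitted together in edgeR 4.0.16 (R 4.3.3, limma 3.58.1, filterByExpr minimum count 10, TMM, group only; tested on simulated data). Adjusted p values are Benjamini-Hochberg over all 16777 or 17107 genes tested. The threshold of 0.001 follows earlier processing of these data, and 0.05, the value in the methods, DESeq2 1.42.0, other normalization, filters, fits and left-out libraries are alternatives. SE was derived from the fold change and the F statistic. CPM used TMM factors over all 18 libraries. Same-group libraries differed beyond sampling noise (chi-square per degree of freedom 14.7 to 117.1). The floor of 3 counts covers counting error only. Members, lists, markers and motifs were chosen with earlier results of these data known. Named are all 10 members, at most 3 called genes with the largest change per pathway list and comparison, and the 3 genes most like each member; markers, antisense genes and Pla2g4a, Ptger2, Ptger4 and Ltb4r1 where outside that rule were named after their values were seen.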

Additional observations from a re-analysis of the deposited data

Results flagged for a closer look

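The change between migrated and nonmigrated cells differed between joint and skin, by the interaction test at an adjusted p under 0.05, for 4 of the 10 genes. With the fold limit used for calls, 6.13% of genes tested passed. Such a difference cannot be told apart from a difference in how the libraries of each site were made. On the log2 scale, joint minus skin, the difference was 3.40 for Ptges, -2.45 for Tbxas1, -3.69 for Ltc4s and -1.33 for Lta4h. The fitted direction was opposite at the 2 sites for Ltc4s (-2.54 in the joint and 1.15 in the skin) and Lta4h (-0.89 and 0.44). Of these values only the joint fall of Ltc4s was called, and that call was lost in 4 of 15 alternatives.

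The change between migrated and steady-state cells differed between the sites by the same kind of test for 5 genes, against 6.11% of genes tested, in a comparison added after seeing the data. The difference was -3.57 for Ptgs2, 1.30 for Hpgds, -2.69 for Tbxas1, -3.25 for Alox5 and -2.73 for Alox5ap. None of these 9 differences passed the stricter threshold of 0.001 used for calls.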

How the results depend on the processing

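Over the 9 comparisons, the 10 genes have 90 log2 fold changes, and 1446 values came from alternatives. Of these, 1315 kept their direction and side of the threshold or were uncalled in both, 49 lost a call, 82 gained one and none of the called values changed direction. Of 26 calls, 15 held in every alternative run.

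The number of genes called moved by over 1.5 times in 37 of 145 alternatives, and the cause was not tested except where fewer libraries entered. Joint against skin nonmigrated gave 4, but 0 when only the groups compared were fitted, 2 without replicate number 3 of each group, and 0 to 4 when single libraries were left out. Joint against skin migrated gave 0, and 1 by DESeq2 at 0.05. The migration interaction gave 0, but 4 at 0.05, 4 by DESeq2, 4 by DESeq2 at 0.05, 2 without the filter and 2 with all 18 libraries fitted. Joint migrated against steady state gave 1, but 2 at 0.05, 2 by DESeq2 at 0.05, 2 without the filter, 2 without replicate number 3, and 1 to 2 with single libraries left out. Skin migrated against steady state gave 6, but 2 without replicate number 3 and 3 to 6 with single libraries left out. The steady-state site comparison gave 1, but 5 at 0.05, 4 by DESeq2, 6 by DESeq2 at 0.05, 4 without the filter, 3 when only the groups compared were fitted, 0 without replicate number 3, and 0 to 1 with single libraries left out. The inflammation interaction gave 0, but 5 at 0.05, 2 by DESeq2, 5 by DESeq2 at 0.05, 4 without the filter, and 0 to 1 with single libraries left out. Migrated against nonmigrated cells gave 6 to 8 in the joint and 6 to 7 in the skin with single libraries left out. Lone libraries in such a fit are assumed to vary like the other groups.

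Replicate numbers were not taken as pairs, because same-numbered libraries were not all correlated above 0.1. Migrated and nonmigrated libraries of the same number gave 0.021, 0.254 and 0.195 in the joint and 0.173, 0.073 and 0.148 in the skin, where those of different numbers reached at most 0.038 and 0.029, a hint from the data and not the design. Joint and skin migrated libraries gave 0.093, 0.144 and 0.19, and most pairs of the other groups lay below 0. With the replicate block the joint against skin nonmigrated count was 1 in place of 4, and over all genes 204 in place of 511, of which 174 were called in both. For migrated against nonmigrated cells the block gave 2826 in place of 3586 genes in the joint and 2750 in place of 3508 in the skin. In the joint the block gave -3.74 for Ptgs2 (adjusted p = 0.000228, called) and -2.52 for Ltc4s (adjusted p = 0.00186, not called). Low levels limit Ltc4s and Ptges at steady state, where libraries held few counts of either, although these were not the shallowest libraries.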
